A study of Mus musculus with 12 samples.

Results

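The subject here is a set of 10 immediate early response genes in the left ventricle (LV) of adult mouse offspring: Fos, Fosb, Jun, Junb, Egr1, Atf3, Ier2, Nr4a1, Dusp1 and Zfp36. They were named for their known rapid induction. The rule used no measured value, although earlier results of these data were known when the set was named. All 10 were among the 46983 genes of the count files and all 10 passed the filter on low counts. That filter left 14706 genes for testing.

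Immediate early genes are transcribed within minutes of a stimulus, from transcription factors that are already present in the cell, so no new protein is needed first. Kinase cascades that end on serum response factor and its partners, and on the cAMP response element binding protein, switch them on. Their products include the AP-1 transcription factors and the phosphatases and RNA-destabilising proteins that end the response, and most of their RNAs are short-lived. In the heart they are known to respond to stretch, adrenergic stimulation and ischaemia.

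The offspring came from wild-type (Wt) FVB mothers, made diabetic with streptozotocin or left non-diabetic, that were mated with males carrying a global deletion of 1 Hif1a allele. Hif1a encodes the oxygen-regulated subunit of hypoxia-inducible factor 1. The 4 groups were Wt offspring of a non-diabetic pregnancy (Wt non-diabetic, samples 25, 42 and 89), Wt offspring of a diabetic pregnancy (Wt diabetic, samples 50, 7 and 80), Hif1a+/- offspring of a non-diabetic pregnancy (Hif1a+/- non-diabetic, samples 14, 32 and 44) and Hif1a+/- offspring of a diabetic pregnancy (Hif1a+/- diabetic, samples 66, 72 and 77). Each group held 3 animals from different litters, and each LV gave 1 library, sequenced from the 3′ ends of transcripts. All animals were 12 weeks old, the mutation was present in every tissue from conception, and the diabetes was the mother's and not the animal's own.

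The libraries held between 16132442 and 39812939 reads counted to genes, with a median of 22260865.5. Levels are given as CPM, read counts scaled to a common library size with trimmed mean of M-values factors, and are compared only between samples for the same gene. The 6 cardiomyocyte markers were at 68200 to 78400 CPM in sum in every library. Hif1a itself averaged 61.5 ± 8.96 CPM in Wt non-diabetic, 55.3 ± 6.37 in Wt diabetic, 85.7 ± 6.01 in Hif1a+/- non-diabetic and 72.3 ± 8.49 in Hif1a+/- diabetic (SD, n = 3 each), which is higher and not lower in the libraries labelled Hif1a+/-. The sources used here do not say which part of the gene the deleted allele lacks, so reads over the gene do not check the genotype. Samples were labelled female, whereas the study describes male offspring. The summed counts of 4 Y-linked genes were above the Xist count in 11 samples and below it in 1, Hif1a+/- diabetic 72. In the 11 the Y-linked counts were 3566 to 7701 and the Xist counts 5 to 176, as in males. In Hif1a+/- diabetic 72 they were 26 and 3599, as in a female. Fold changes of members, sign counts, list medians and correlations that use that sample are also given without it. In bulk tissue, fewer cells of a type and less RNA per cell cannot be told apart.

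The promoter windows of 4 members are shown because these genes carried most of the variation described here (Fos, Atf3 and Nr4a1) or held the full cAMP response element (Dusp1). Each runs from 250 bases before to 50 bases after the RefSeq start site on the gene's own strand, in GRCm38.p6. Fos lies at chr12:85473640-85473939 (plus strand), Atf3 at chr1:191183284-191183583 (minus strand), Nr4a1 at chr15:101266596-101266895 (plus strand) and Dusp1 at chr17:26508423-26508722 (minus strand). Capitals mark the core of the cAMP response element on either strand (TGACG or CGTCA), its full form (TGACGTCA) and the TATA box letters (TATAAA).
Fos: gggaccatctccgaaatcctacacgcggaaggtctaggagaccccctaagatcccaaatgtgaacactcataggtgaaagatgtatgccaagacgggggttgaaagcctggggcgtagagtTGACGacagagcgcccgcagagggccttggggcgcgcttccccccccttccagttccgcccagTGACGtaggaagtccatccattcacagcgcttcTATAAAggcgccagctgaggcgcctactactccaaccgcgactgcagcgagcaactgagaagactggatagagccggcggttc
Atf3: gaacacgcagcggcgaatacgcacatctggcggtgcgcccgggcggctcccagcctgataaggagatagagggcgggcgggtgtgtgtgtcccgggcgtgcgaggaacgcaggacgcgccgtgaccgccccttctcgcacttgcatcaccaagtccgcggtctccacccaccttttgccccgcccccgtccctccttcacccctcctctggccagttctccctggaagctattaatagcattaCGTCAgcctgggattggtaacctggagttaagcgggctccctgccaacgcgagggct
Nr4a1: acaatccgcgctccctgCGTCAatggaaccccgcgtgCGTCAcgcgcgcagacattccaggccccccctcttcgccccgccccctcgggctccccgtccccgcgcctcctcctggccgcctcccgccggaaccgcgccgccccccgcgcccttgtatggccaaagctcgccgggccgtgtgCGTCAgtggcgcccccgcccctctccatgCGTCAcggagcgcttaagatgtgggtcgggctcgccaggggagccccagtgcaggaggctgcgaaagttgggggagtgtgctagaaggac
Dusp1: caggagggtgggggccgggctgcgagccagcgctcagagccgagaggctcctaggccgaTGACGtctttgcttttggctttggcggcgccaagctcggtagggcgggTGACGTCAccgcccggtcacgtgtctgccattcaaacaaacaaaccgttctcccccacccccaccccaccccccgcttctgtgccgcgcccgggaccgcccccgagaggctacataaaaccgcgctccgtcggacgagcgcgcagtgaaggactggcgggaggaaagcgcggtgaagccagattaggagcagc

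Windows were read for 8 members, and Egr1 and Ier2 were left out. Member windows on chr18, where Egr1 lies, were passed over, whereas those of all genes were kept. The counts therefore say nothing about Egr1 or Ier2. Among the 8, 6 held TGACG on either strand (Fos, Fosb, Junb, Atf3, Nr4a1 and Dusp1), as did 20.8% of the 32851 windows of all genes. Nr4a1 held 4 such matches, starting at -233, -213, -69 and -40 from the start site, and Dusp1 held 3. Fos held 2, at -129 and -66, and Atf3 held 1, at -7. The full TGACGTCA, which contains the core on both strands, was in Dusp1 alone among the 8 and in 1.79% of all windows. TATAAA stood in Fos and Junb and in 13.6% of all windows. The CArG box that serum response factor binds was found in the Zfp36 window and in 1.63% of all windows. TGANTCA, the AP-1 site, was in none of the 8 windows and in 7.81% of all. The core letters bound by hypoxia-inducible factors were in 1 member as ACGTG (Dusp1; 19.6% of all windows) and in 6 as GCGTG (32.4%). These matches describe letters in a short window and are not evidence of binding.

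Most members varied more from animal to animal than the typical gene. The ratio of the highest to the lowest of the 12 samples was 5.73 for Fos, 5.69 for Nr4a1, 4.67 for Atf3 and 3.73 for Fosb, and it lay between 1.64 (Jun) and 2.24 (Egr1) for the others. Its median was 2.18 over the members and 1.53 over all genes tested. Within groups, the median SD on the log2 scale was 0.279 over the members and 0.159 over all genes. The biological coefficient of variation, the spread between replicates beyond counting error, was 47.0% for Atf3, 39.7% for Fos, 34.4% for Fosb and 32.7% for Nr4a1. Respectively 99.4%, 98.5%, 97.1% and 96.4% of genes had a smaller one. Among the remaining members it was lowest for Ier2, at 14.7%, which was above that of 62.6% of genes.

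**Figure D1:**
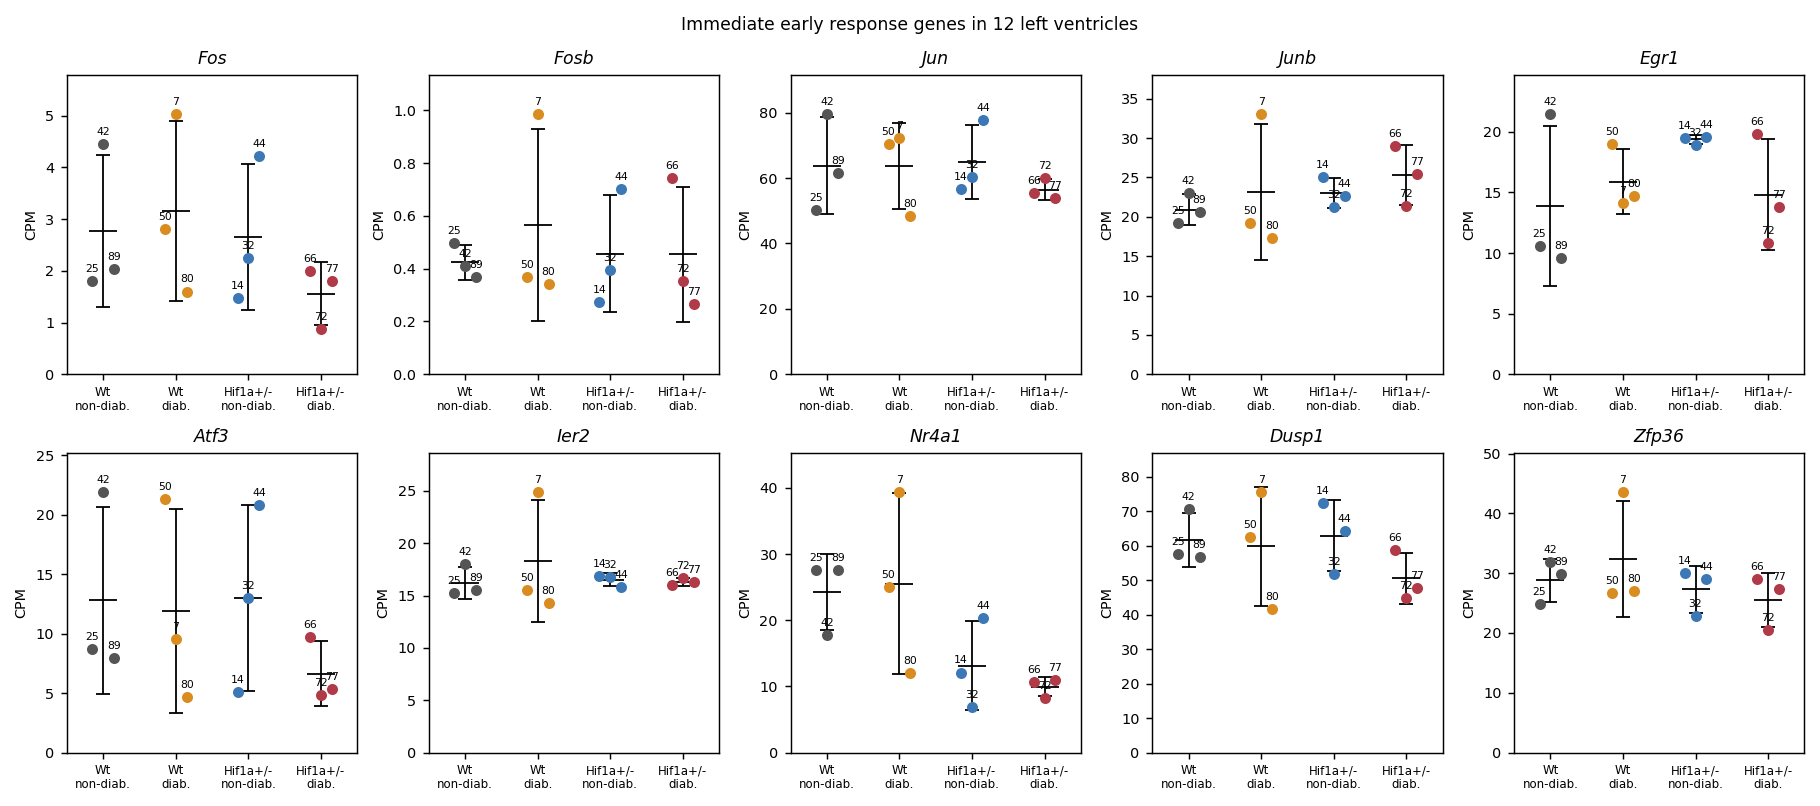
Level of each of the 10 members in every LV sample, in CPM, with 1 panel per gene and the 4 groups side by side. Points are samples and bars are group means with SD (n = 3). In Nr4a1 the 3 Hif1a+/- diabetic points, 8.27 to 11.0 CPM, lie below all 6 Wt points, and in the other panels neighbouring groups overlap.

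Fos, the AP-1 subunit that dimerises with Jun proteins (chr12:85473890-85477273, plus strand), was at 1.81, 4.46 and 2.04 CPM in Wt non-diabetic samples 25, 42 and 89. It was at 2.81, 5.04 and 1.6 CPM in Wt diabetic samples 50, 7 and 80, and at 1.48, 2.25 and 4.22 CPM in Hif1a+/- non-diabetic samples 14, 32 and 44. In Hif1a+/- diabetic samples 66, 72 and 77 it was at 2.0, 0.88 and 1.81 CPM. The first 3 groups each held 1 sample above 4 CPM, the Hif1a+/- diabetic group held none, and the groups overlapped. These levels rest on 20 to 148 reads per library. Fos differed between the Hif1a+/- and Wt diabetic groups by a log2 fold change of -1.02 (SE 0.49), with an adjusted p of 0.86 from edgeR's quasi-likelihood test. Without Wt diabetic 7 that difference was -0.48, and without Hif1a+/- diabetic 72 it was -0.75. Between diabetic and non-diabetic pregnancies the log2 fold change was -0.72 (SE 0.5, edgeR adjusted p 0.56) in Hif1a+/- offspring, or -0.2 without Hif1a+/- non-diabetic 44 and -0.45 without Hif1a+/- diabetic 72.

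Fosb, a related AP-1 subunit (chr7:19302696-19310051, minus strand), was counted with only 6 to 29 reads per library. Its levels were 0.498, 0.409 and 0.368 CPM in Wt non-diabetic, 0.369, 0.988 and 0.343 in Wt diabetic, 0.273, 0.394 and 0.704 in Hif1a+/- non-diabetic, and 0.745, 0.352 and 0.265 in Hif1a+/- diabetic (samples in the order given for Fos). The high samples were Wt diabetic 7, Hif1a+/- diabetic 66 and Hif1a+/- non-diabetic 44, and the groups overlapped. In Wt offspring the log2 fold change for maternal diabetes was 0.51 (SE 0.53, edgeR adjusted p 1.0), and its sign turned, to -0.22, without Wt diabetic 7.

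Jun, the partner of the Fos proteins in AP-1 (chr4:95049034-95052222, minus strand), varied least from sample to sample by the ratio of highest to lowest. In the same order, its levels were 50.1, 79.7 and 61.5 CPM, then 70.4, 72.3 and 48.5, then 56.6, 60.3 and 77.7, and 55.5, 60.0 and 53.8 CPM in Hif1a+/- diabetic. The groups overlapped, and Wt non-diabetic 42, Hif1a+/- non-diabetic 44 and Wt diabetic 7, the samples high for Fos, were again the highest. Jun differed by -0.2 (SE 0.18, edgeR adjusted p 0.66) on the log2 scale between the diabetic and non-diabetic Hif1a+/- groups, by -0.04 without Hif1a+/- non-diabetic 44 and by -0.24 without Hif1a+/- diabetic 72.

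Junb, an AP-1 subunit that often opposes Jun (chr8:84974484-84978718, minus strand), had a different order of samples. It was at 19.2, 23.0 and 20.6 CPM in Wt non-diabetic, 19.2, 33.1 and 17.3 in Wt diabetic, 25.1, 21.3 and 22.6 in Hif1a+/- non-diabetic, and 29.0, 21.4 and 25.4 in Hif1a+/- diabetic. Wt diabetic 7 was the highest sample and Wt diabetic 80 the lowest, so this group spanned all others. Of the 10 members, Junb was the one with its highest group mean in Hif1a+/- diabetic, with a log2 fold change of 0.27 (SE 0.2, edgeR adjusted p 0.68) against Wt non-diabetic, or 0.16 without Hif1a+/- diabetic 66 and 0.38 without Hif1a+/- diabetic 72.

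Egr1, a zinc finger transcription factor induced by growth signals and stretch (chr18:34859823-34864984, plus strand), was at 10.6, 21.5 and 9.6 CPM in Wt non-diabetic and at 19.0, 14.1 and 14.7 CPM in Wt diabetic. It was at 19.5, 18.9 and 19.6 CPM in Hif1a+/- non-diabetic and at 19.8, 10.8 and 13.8 CPM in Hif1a+/- diabetic. The 3 Hif1a+/- non-diabetic samples lay close together near the upper end, and Wt non-diabetic 42 lay above them, so the groups overlapped. The log2 fold change between Hif1a+/- and Wt in non-diabetic pregnancies was 0.47 (SE 0.27, edgeR adjusted p 1.0), and leaving out 1 Wt non-diabetic sample moved it to 0.26 (without 89), 0.31 (without 25) or 0.93 (without 42).

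Atf3, a stress-induced factor of the ATF/CREB family (chr1:191170296-191218039, minus strand), was at 8.66, 21.9 and 7.93 CPM in Wt non-diabetic and at 21.3, 9.57 and 4.68 CPM in Wt diabetic. It was at 5.1, 13.0 and 20.8 CPM in Hif1a+/- non-diabetic and at 9.73, 4.8 and 5.34 CPM in Hif1a+/- diabetic. As with Fos, the first 3 groups each held 1 high sample (42, 50 and 44, all above 20 CPM) and the Hif1a+/- diabetic group held none. The fold changes rested on those animals. Maternal diabetes in Hif1a+/- offspring gave a log2 fold change of -0.93 (SE 0.57, edgeR adjusted p 0.51), or -0.4 without Hif1a+/- non-diabetic 44 and -0.74 without Hif1a+/- diabetic 72. Genotype in diabetic pregnancies gave -0.82 (SE 0.57, edgeR adjusted p 0.86), or -0.11 without Wt diabetic 50 and -0.64 without Hif1a+/- diabetic 72.

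Ier2, a small nuclear protein linked to growth factor responses (chr8:84661331-84662852, minus strand), varied little outside 1 animal. It was at 15.2, 18.0 and 15.5 CPM in Wt non-diabetic, 15.5, 24.9 and 14.3 in Wt diabetic, 16.9, 16.8 and 15.8 in Hif1a+/- non-diabetic, and 16.0, 16.7 and 16.3 in Hif1a+/- diabetic. Wt diabetic 7 stood above the rest, and the other 11 samples lay between 14.3 and 18.0 CPM. The log2 fold change for maternal diabetes in Wt was 0.18 (SE 0.17, edgeR adjusted p 1.0), and -0.12 without that sample.

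Nr4a1, an orphan nuclear receptor also called Nur77 (chr15:101254269-101274795, plus strand), had the largest log2 fold changes between genotypes among the members. It was at 27.6, 17.7 and 27.6 CPM in Wt non-diabetic and at 25.0, 39.4 and 12.0 CPM in Wt diabetic. It was at 12.1, 6.93 and 20.3 CPM in Hif1a+/- non-diabetic and at 10.6, 8.27 and 11.0 CPM in Hif1a+/- diabetic. Group means were 24.3 ± 5.7, 25.5 ± 13.7, 13.1 ± 6.72 and 9.95 ± 1.47 CPM (SD, n = 3 each). The Hif1a+/- diabetic samples lay below all 6 Wt samples, whereas Hif1a+/- non-diabetic 14 and 44 lay inside the Wt range and Hif1a+/- non-diabetic 32 below it.

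Averaged over both kinds of pregnancy, Nr4a1 had a log2 fold change of -1.13 in Hif1a+/- against Wt (SE 0.27, 95% interval -1.72 to -0.53), with an unadjusted p of 0.0012 and an adjusted p of 1.0 from edgeR. Within diabetic pregnancies the log2 fold change was -1.36 (SE 0.39, 95% interval -2.2 to -0.53, unadjusted p 0.0037, edgeR adjusted p 0.86), and within non-diabetic pregnancies it was -0.89 (SE 0.39, unadjusted p 0.039, edgeR adjusted p 1.0), or -1.34 without Hif1a+/- non-diabetic 44. The Hif1a+/- diabetic group against Wt non-diabetic gave -1.28 (SE 0.39, unadjusted p 0.0057, edgeR adjusted p 0.47). None of these passed the adjusted threshold of 0.1, by edgeR or by DESeq2. Without the filter on low counts all 4 passed in edgeR, in a fit of 27093 genes whose median degrees of freedom were 160.0 against 13.3 with the filter. The genotype difference itself differed between the pregnancies by -0.48 (SE 0.55, edgeR adjusted p 1.0), or -0.36 without Hif1a+/- diabetic 72. Leaving out 1 sample at a time moved the average difference between -1.35 and -0.9, and without Hif1a+/- diabetic 72 it was -1.07. In diabetic pregnancies it ran from -1.69, without Wt diabetic 80, to -0.9, without Wt diabetic 7, and was -1.25 without Hif1a+/- diabetic 72. Against Wt non-diabetic it was -1.17 without the same sample.

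Nr4a3, a close relative of Nr4a1 in the nuclear receptor family, is named here after its values were seen. It was at 18.2, 13.0 and 4.95 CPM in Wt non-diabetic, 19.7, 33.5 and 2.63 in Wt diabetic, 2.26, 5.41 and 9.1 in Hif1a+/- non-diabetic, and 6.81, 3.04 and 4.24 in Hif1a+/- diabetic. Of the 6 Wt samples, 4 lay above every Hif1a+/- sample, and 2, Wt non-diabetic 89 and Wt diabetic 80, lay within the Hif1a+/- range. The average log2 fold change of Nr4a3 between genotypes was -1.54 (SE 0.5, unadjusted p 0.0082, edgeR adjusted p 1.0), or -1.43 without Hif1a+/- diabetic 72. Nr4a2, another gene of that family, was at only 0.343 to 1.99 CPM. Its average log2 fold change between genotypes was -0.2 (SE 0.35, edgeR unadjusted p 0.57), and -0.04 (SE 0.48) in diabetic pregnancies.

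Dusp1, a phosphatase that switches off mitogen-activated protein kinases (chr17:26505590-26562128, minus strand), was at 57.7, 70.6 and 56.6 CPM in Wt non-diabetic and at 62.4, 75.6 and 41.5 CPM in Wt diabetic. It was at 72.3, 51.9 and 64.3 CPM in Hif1a+/- non-diabetic and at 58.8, 44.8 and 47.8 CPM in Hif1a+/- diabetic. The lowest sample was Wt diabetic 80 and the highest Wt diabetic 7, so the Wt diabetic group was the widest. Within Hif1a+/- the log2 fold change for maternal diabetes was -0.32 (SE 0.19, edgeR adjusted p 0.51), or -0.2 without Hif1a+/- non-diabetic 14 and -0.23 without Hif1a+/- diabetic 72.

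Zfp36, which binds AU-rich elements and speeds the decay of immediate early RNAs (chr7:28376784-28380253, minus strand), was at 24.8, 31.8 and 29.8 CPM in Wt non-diabetic and at 26.7, 43.6 and 27.0 CPM in Wt diabetic. It was at 30.0, 22.8 and 29.1 CPM in Hif1a+/- non-diabetic and at 29.0, 20.5 and 27.3 CPM in Hif1a+/- diabetic. Wt diabetic 7 was again the highest and Hif1a+/- diabetic 72 the lowest, and the groups overlapped. Its log2 fold change between genotypes in diabetic pregnancies was -0.34 (SE 0.19, edgeR adjusted p 0.86), or -0.06 without Wt diabetic 7 and -0.2 without Hif1a+/- diabetic 72.

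Across the 8 comparisons of the design no member passed an adjusted p of 0.1 in edgeR, where the share of all genes called was 0% in each comparison. With DESeq2 no member passed either. Its shares of all genes called were 0.0148% for maternal diabetes in Wt, 1.44% for maternal diabetes in Hif1a+/-, 0.00369% for genotype in non-diabetic pregnancies and 0.155% for genotype in diabetic pregnancies. They were 0.453% for Hif1a+/- diabetic against Wt non-diabetic, 0% for the interaction, 1.46% for diabetes averaged over genotypes and 0.0259% for genotype averaged over pregnancies. The Fosb count was too low for DESeq2 to give an adjusted p in 2 of the 8.

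At an unadjusted p under 0.05 in edgeR, Nr4a1 was the 1 member of 10 in each comparison that involved genotype without the interaction. The background shares of all genes were 0.959% for genotype in non-diabetic pregnancies, 5.35% in diabetic pregnancies, 2.69% averaged over pregnancies and 8.85% for Hif1a+/- diabetic against Wt non-diabetic. No member reached it for maternal diabetes in Wt (2.78% of all genes), in Hif1a+/- (12%), averaged over genotypes (11.3%) or for the interaction (2.52%). At the same unadjusted p DESeq2 gave 0 members for genotype in non-diabetic pregnancies (0.476% of all genes) and 2 in diabetic pregnancies (2.86%). It gave 1 averaged over pregnancies (1.38%) and 1 for Hif1a+/- diabetic against Wt non-diabetic (4.66%). The Hif1a+/- diabetic samples lay wholly below the Wt diabetic ones for 1 member, Nr4a1, and for 3.62% of all genes, and wholly below the Wt non-diabetic ones for 1 member, Nr4a1, and for 7.11% of all genes.

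**Figure D2:**
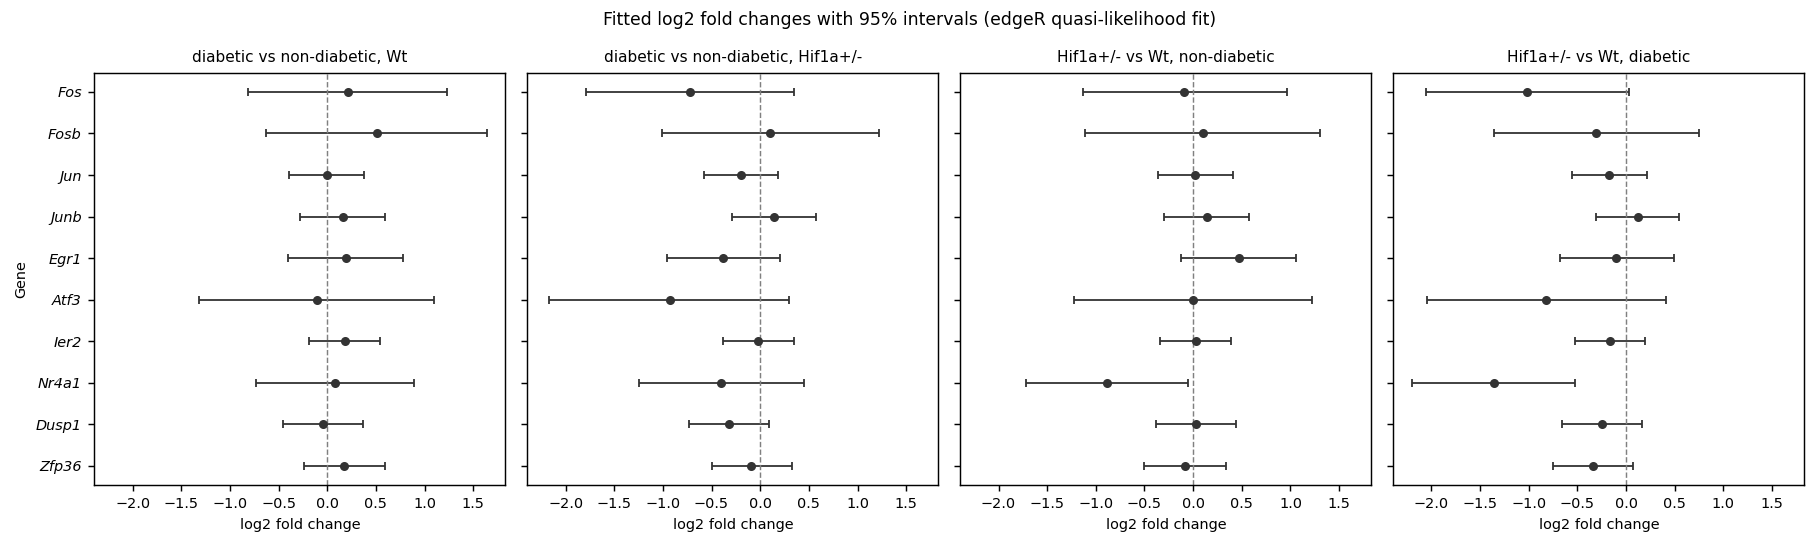
Log2 fold change of each member in the comparisons of genotype and maternal diabetes, with 95% intervals from edgeR. Among the intervals drawn, those of Nr4a1 between genotypes leave out 0, and that of Nr4a1 in diabetic pregnancies runs from -2.2 to -0.53.

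The signs of the fold changes described the set as follows, with comparisons sharing groups and so not independent. The members were measured in the same animals and many varied together, so their signs are not independent either. For maternal diabetes in Hif1a+/- 8 members were lower and 2 higher, beside 51.0% of all genes lower. The median log2 fold change was -0.258 against -0.006 over all genes. In Wt 7 were higher and 3 lower, beside 48.4% of all genes lower, with a median of 0.164 against 0.006. For genotype in diabetic pregnancies 9 of 10 were lower, beside 52.1% of all genes, with a median of -0.277 against -0.008. In non-diabetic pregnancies 7 were higher, beside 49.2% of all genes lower, with a median of 0.024 against 0.002. In the interaction all 10 estimates were below 0, beside 52.3% of all genes. Their median was -0.34 against -0.011, and none had an edgeR adjusted p under 0.1. Without Hif1a+/- diabetic 72, 7 members were lower for maternal diabetes in Hif1a+/- (median -0.208), 8 for genotype in diabetic pregnancies (median -0.195) and 9 in the interaction (median -0.241). By group means, Hif1a+/- diabetic was the lowest group for 6 members and Wt non-diabetic for 4. In all 30 neighbouring pairs of groups, ordered by mean, the samples overlapped.

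The same animals were high or low for many members at once. Wt diabetic 7 was the highest of the 12 samples for 7 members and Wt non-diabetic 42 for the other 3 (Jun, Egr1 and Atf3). Wt diabetic 80 was the lowest sample for 5 members and Hif1a+/- diabetic 72 for 2. The member index, the mean over the 10 genes of log2(CPM + 1), was 4.4 in Wt diabetic 7, 4.25 in Wt non-diabetic 42 and 4.22 in Hif1a+/- non-diabetic 44, and it was lowest in Wt diabetic 80 (3.6) and Hif1a+/- diabetic 72 (3.52). The Wt diabetic group thus held both the sample with the highest index and the one with the second lowest.

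**Figure D3:**
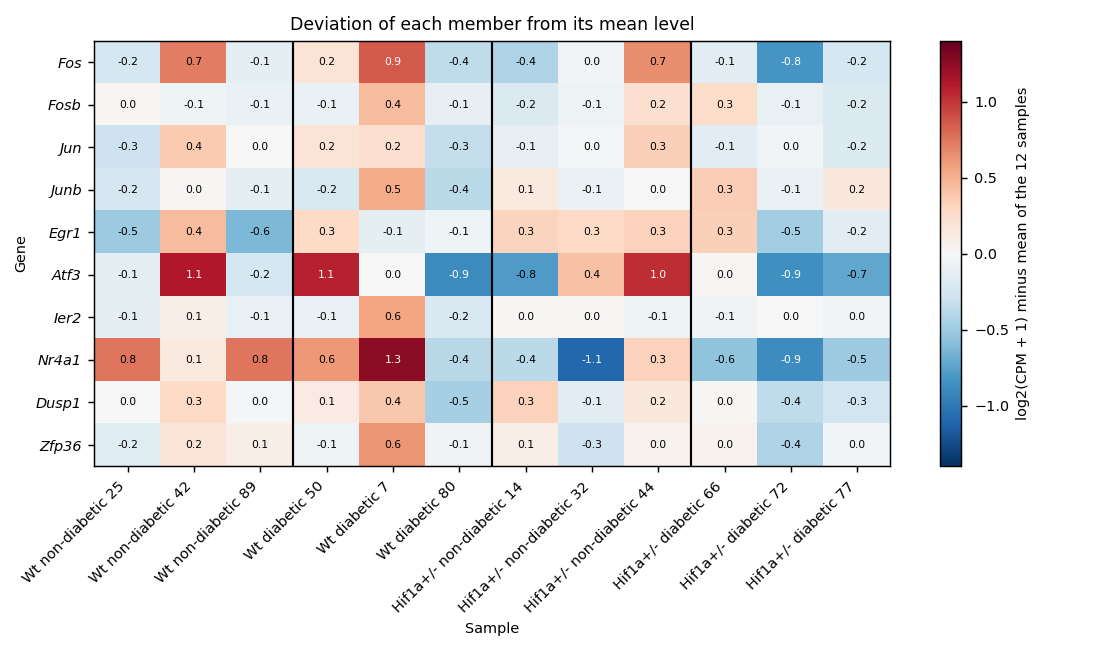
Deviation of each member from its mean over the 12 samples, on the scale of log2(CPM + 1), with genes as rows and samples as columns ordered by group. Wt diabetic 7 is high for most genes and Wt diabetic 80 is low, so columns of the same group differ from each other.

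Fos levels went with those of several members across the 12 samples, on the scale of log2(CPM + 1). Pearson's r was 0.8 for Jun (permutation p 0.0019, adjusted over 9 members 0.017) with a Spearman rho of 0.8 (permutation p 0.0032, adjusted 0.014). For Atf3 r was 0.76 (permutation p 0.0046, adjusted 0.019) and rho 0.83 (permutation p 0.0014, adjusted 0.012). Without Wt diabetic 7 and Wt non-diabetic 42, the samples farthest from the median of Fos, r was 0.88 for Atf3 and 0.69 for Jun, and for Jun it no longer passed the adjusted threshold among the 10 samples left. Without Hif1a+/- diabetic 72, r was 0.91 for Jun and 0.72 for Atf3. For Zfp36 r was 0.72 (permutation p 0.0063, adjusted 0.019; rho 0.51, adjusted 0.17), for Dusp1 0.69 (permutation p 0.013, adjusted 0.029; rho 0.59, adjusted 0.11) and for Fosb 0.63 (permutation p 0.027, adjusted 0.049; rho 0.66, adjusted 0.071). Without the same pair of samples they were 0.46, 0.48 and 0.54 and did not pass. Those 2 animals hold 2 of the highest Fos levels, so leaving them out narrows the range of Fos and leaves 10 samples. The loss of the threshold therefore cannot show whether the calls for these genes and for Jun rest on them. As deviations from group means, over all 12 samples, r was 0.68 for Zfp36, 0.64 for Dusp1 and 0.68 for Fosb, and these passed. Nr4a1 (r 0.6, permutation p 0.04, adjusted 0.06; rho 0.47, adjusted 0.2) and Ier2 (r 0.56, permutation p 0.05, adjusted 0.064; rho 0.33, adjusted 0.34) did not pass without those 2 animals either, at 0.46 and -0.18. Egr1 (r 0.44, permutation adjusted p 0.17) and Junb (r 0.38, permutation adjusted p 0.22) did not pass the threshold.

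**Figure D4:**
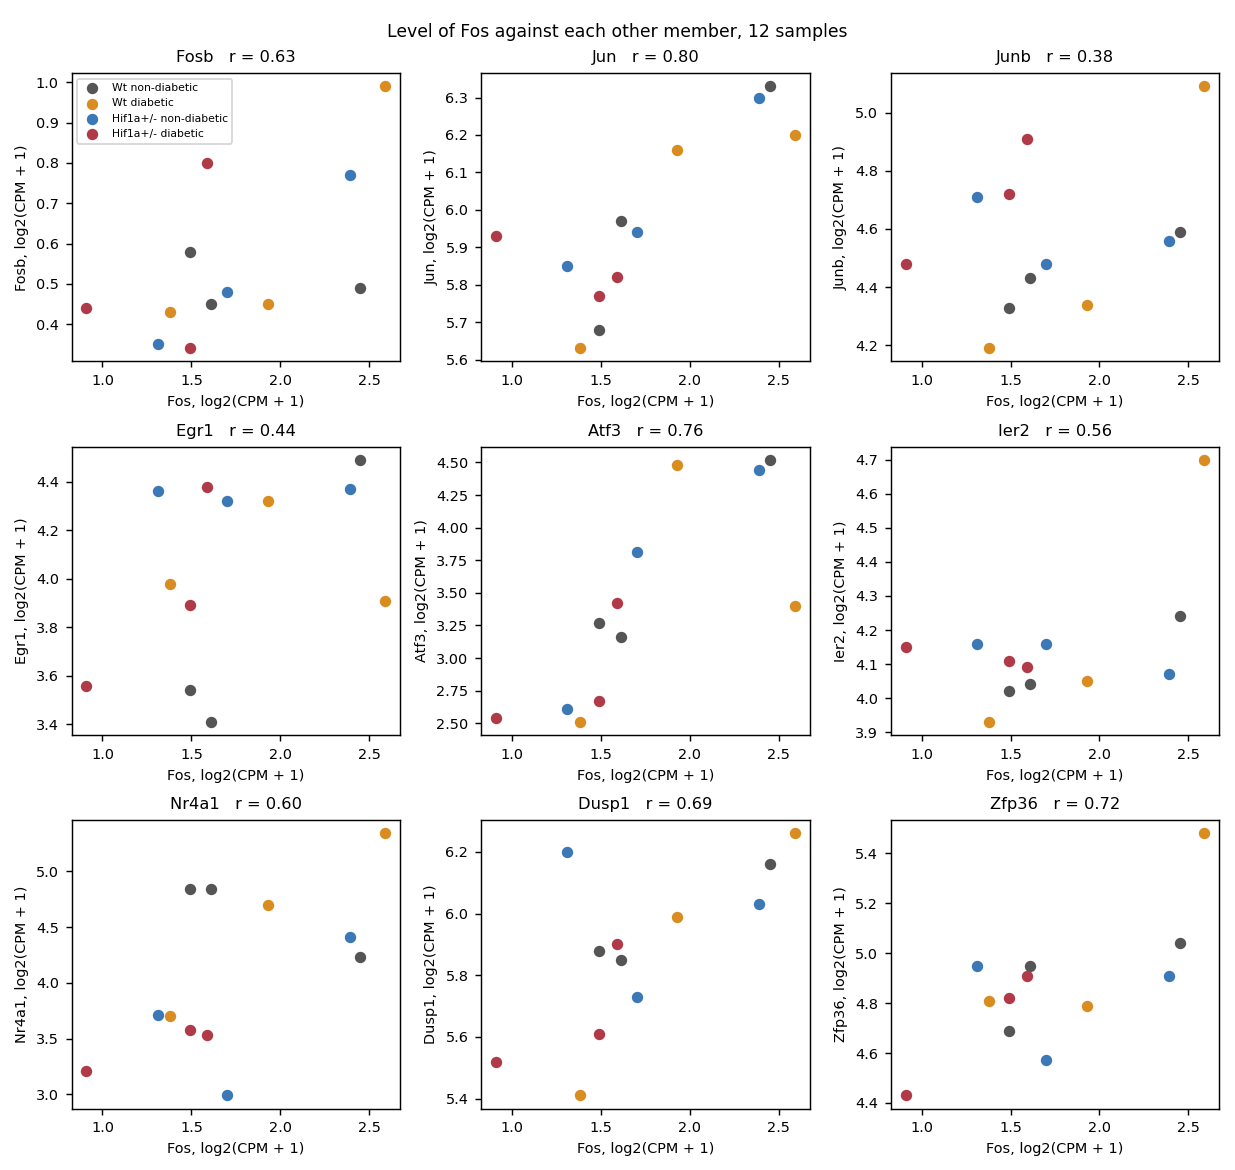
Level of Fos against the levels of other members in the 12 samples, each as log2(CPM + 1), with colours for the 4 groups. Pearson's r is 0.8 for Jun and 0.76 for Atf3, and Wt diabetic 7 and Wt non-diabetic 42 lie farthest to the right.

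All 45 pairs among the 10 members were then computed, a step added after the data had been seen. In 43 of them r was above 0, with a median of 0.48 and a range from -0.24 (Egr1 with Nr4a1) to 0.8. Adjusted over the 45, 8 pairs had a permutation p under 0.1, and 5 of these also did by rho: Fos with Jun, Fos with Atf3, Jun with Atf3 (r 0.78), Junb with Ier2 (r 0.77) and Dusp1 with Zfp36 (r 0.71). Taken as deviations from group means, the last 3 were 0.76, 0.87 and 0.76. The highest value in that setting was 0.93, for Junb with Zfp36 (permutation p adjusted over 45 pairs 0.00045, rho 0.92), beside 0.84 for Junb with Dusp1. As levels these 2 pairs did not pass, with r at 0.65 (permutation adjusted p 0.11) and 0.54 (permutation adjusted p 0.15). Without Wt diabetic 7 and Hif1a+/- diabetic 66, the samples farthest from the median of Junb, they were 0.28 and 0.42. Without Hif1a+/- diabetic 72, 42 of the 45 pairs had an r above 0, with a median of 0.48 and a range from -0.46 to 0.91.

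Among all other tested genes, the 10 with a pattern most like the member index over the 12 samples were Tardbp (r 0.93), Apold1, Rnf19a, Spag1, Slc25a25, Errfi1, Elf2, Acin1, Safb and Fosl2 (r 0.9). Fosl2, another AP-1 subunit, and Errfi1, an inhibitor of epidermal growth factor receptor signalling, also stand in the list of other immediate early genes. The closest gene to Fos alone was Tmem182 (r 0.93), to Atf3 Otud1 (r 0.96), to Jun Sde2 (r 0.93), to Junb Stk38 (r 0.95), to Ier2 Klhl34 (r 0.93) and to Dusp1 Ankrd10 (r 0.93). For Fosb it was Men1 (r 0.87), for Egr1 Mas1 (r 0.87), for Nr4a1 Gm37499 (r 0.87) and for Zfp36 Gmeb2 (r 0.86). These are the largest of 14696 values each over the same 12 libraries, and are a description only.

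Lists of related genes were read from the same fit, and no gene of any list passed the edgeR threshold in any comparison. For maternal diabetes in Hif1a+/-, the 50 tested of 52 other immediate early genes had a median log2 fold change of -0.06, with 1 higher and 2 lower at an unadjusted p under 0.05. In that comparison 5.72% of all genes were higher and 6.28% lower at that p, 12% in all, and the counts in the lists stand beside that background. The 3 with the largest differences were Sik1, a kinase that restrains cAMP response element signalling (-1.09, SE 0.41, edgeR adjusted p 0.36), Gadd45b, a stress and growth arrest gene (0.9, SE 0.43, edgeR adjusted p 0.43), and Socs3, an inhibitor of cytokine signalling (0.6, SE 0.29, edgeR adjusted p 0.42). Sik1 was at 134.0 CPM in Hif1a+/- non-diabetic 44 and 116.0 CPM in Wt non-diabetic 42, the samples high for Atf3 and Jun, and at 41.6, 33.1 and 35.2 CPM in Hif1a+/- diabetic. Without Hif1a+/- non-diabetic 44 its log2 fold change was -0.45, and that of Gadd45b 0.59. Gadd45b ran the other way across samples, with an r of -0.8 against the member index.

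For maternal diabetes in Hif1a+/- 6.28% of all genes were lower and 5.72% higher at an unadjusted p under 0.05. Of the 24 upstream kinases and transcription factors, 2 were lower and none higher at that p, with a median of -0.07. Their largest values were Rps6ka3 (-0.4), Creb1, which encodes the cAMP response element binding protein (-0.24), and its coactivator Crtc2 (-0.23). Of the 14 feedback regulators 2 were lower and none higher, beside the same shares of all genes. The list's median was -0.09, and its largest values were Zfp36l1, the paralogue of Zfp36 (-0.42, SE 0.15, edgeR adjusted p 0.33), Dusp8 (-0.39) and Spred2 (-0.29). Leaving out 1 Hif1a+/- non-diabetic sample moved Creb1 to -0.14 (without 32), Dusp8 to -0.25 (without 32) or -0.6 (without 14), and Spred2 to -0.18 (without 44).

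The HSP70 genes and Dnajb1 of the heat shock list were high in the animals in which Atf3 was high. Hspa1b, a stress-inducible HSP70 gene, was at 30.5 CPM in Wt non-diabetic 42, 34.7 in Wt diabetic 50 and 23.8 in Hif1a+/- non-diabetic 44, and at 1.1 to 10.1 CPM in the other 9 samples. Reads that matched Hspa1b and its near-identical copy Hspa1a equally were not counted by the authors, so the levels of both may be too low. Dnajb1, a cochaperone of HSP70, was at 67.3, 49.8 and 63.5 CPM in the same 3 samples and at 19.6 to 36.4 CPM elsewhere. In the list, 9 of 10 genes had an r above 0.5 with the member index, against 16.7% of all genes tested. For maternal diabetes in Hif1a+/- the list's median was -0.2, and the log2 fold changes of Hspa1b (-1.72, SE 1.24) and Hspa1a (-1.23, SE 1.29) turned to 0.24 and 0.63 without Hif1a+/- non-diabetic 44. Dnajb1 was at -0.89 (SE 0.4, edgeR adjusted p 0.41), or -0.27 without the same sample.

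For maternal diabetes in Hif1a+/- 5.72% of all genes were higher and 6.28% lower at an unadjusted p under 0.05. The 11 glucocorticoid response genes had a median of 0.42 there, with 2 higher and none lower at that p. Their largest values were Lcn2 (1.04), Mt2 (0.92) and Zbtb16 (0.77), which were 0.41, 0.6 and 0.17 without Hif1a+/- diabetic 66. By DESeq2, 2 of the 11, Tsc22d3 and Mt1, passed for diabetes averaged over genotypes (log2 fold change 0.29 and 0.53, DESeq2 adjusted p 0.054 and 0.093), and not by edgeR. The 15 clock genes had a median of -0.11 in Hif1a+/- and of 0.56 in Wt, where 6 were higher and 2 lower at an unadjusted p under 0.05, beside 2.78% of all genes. Arntl, the core activator of the clock, ranged from 2.78 to 21.6 CPM, and was at 6.18, 6.78 and 4.11 CPM in Wt diabetic against 8.41, 16.8 and 21.6 CPM in Wt non-diabetic. In Hif1a+/- its log2 fold change was -0.81, beside -0.4 for its partner Clock and -1.15 for Ciart. Arntl was at -0.41 and Clock at -0.25 without Hif1a+/- diabetic 77, Arntl at -0.51 without Hif1a+/- non-diabetic 44 and -1.22 without Hif1a+/- non-diabetic 14, and Ciart at 0.73 without the latter. The time of day of collection is not given in the sources used here, and the part of the clock in the members' values was not tested.

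The 12 hypoxia response genes had a median of -0.11 for maternal diabetes in Hif1a+/-, with 2 lower and none higher at an unadjusted p under 0.05. Of all genes 6.28% were lower and 5.72% higher at that p. Kdm3a, a histone demethylase induced by hypoxia-inducible factor, was 1 of the 2 (log2 fold change -0.46, SE 0.13, edgeR adjusted p 0.27). Vegfa, the vascular growth factor, at -0.61 and Adm at -0.49 were not among the 2 (edgeR unadjusted p 0.08 each). Without Hif1a+/- non-diabetic 44, Vegfa was at -0.32 and Adm at -0.22. Kdm3a was at 27.5, 26.2 and 26.4 CPM in the 3 Hif1a+/- diabetic samples and at 28.1 to 44.6 CPM in the other 9, with no overlap. Hif1a+/- diabetic lay wholly below Hif1a+/- non-diabetic for 13.2% of all genes, and wholly below Wt non-diabetic for 7.11%. DESeq2 called Kdm3a against Wt non-diabetic (adjusted p 0.053), and the paper lists it among its changed genes from the same samples. Vegfa had an r of 0.8 with the member index across samples. Without Hif1a+/- diabetic 72, none of the 21 list genes named for this comparison changed sign or moved by over 1.5 times, and the list medians were -0.01 for the other immediate early genes, -0.06 upstream, -0.09 for feedback, -0.13 for heat shock, 0.43 for the glucocorticoid response, -0.19 for the clock and -0.12 for hypoxia.

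Of the 12 marker lists, only the adventitial and epicardial one set the Hif1a+/- diabetic group apart from all other samples. The 6 adventitial and epicardial markers summed to 173 to 384 CPM there, and to 95.6 to 138 CPM in the other 9 samples. The 6 macrophage markers summed to 180 to 283 CPM there, to 118 to 170 in Wt non-diabetic, 131 to 214 in Wt diabetic and 95.1 to 141 in Hif1a+/- non-diabetic. The erythroid markers were at 7320 CPM in Wt non-diabetic 25 and at 185 to 1770 CPM elsewhere, and the neutrophil markers at 19.2 CPM in the same sample and 1.36 to 8.39 CPM elsewhere. The 6 fibroblast markers had the largest correlation with the member index among the 12 marker lists, an r of -0.61 over 12 libraries, and were highest in Wt diabetic 80 (1600 CPM), Hif1a+/- diabetic 72 (1540) and Hif1a+/- diabetic 77 (1510), against 1050 to 1400 CPM in the other 9. No marker was at 0 in all samples. The part of these cell types in the members' levels was not tested.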

How the data were processed

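Total RNA of the LV was sequenced as 12 libraries, 3 in each of 4 groups. Per the labels and the study's methods, the authors trimmed reads with Trimmomatic, removed ribosomal and mitochondrial reads with SortMeRNA, aligned them to GRCm38 with STAR 2.5.2b and counted them to GENCODE genes with HTSeq. The deposited raw counts were used. Files of values that the authors normalized with DESeq2 were not used. Reads that matched several places, 12.366 to 17.021% of reads, were not counted by the authors.

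Counts were fitted with edgeR 4.0.16 (quasi-likelihood test, trimmed mean of M-values, a low-count filter by group, 1 mean per group, 14706 genes) in R 4.3.3, with p-values adjusted by Benjamini-Hochberg over all tested genes and a threshold of 0.1. DESeq2 1.42.0 was an alternative. Correlations used log2(CPM + 1) and permutation tests of 100000 resamples, two-sided. Deviations from group means were shuffled freely although they sum to 0 in each group, so the p-values in that setting can be too small. The fit was tested on simulated data in which all genes had a biological coefficient of variation of 13.7%. Every member had a larger one, from 14.7% for Ier2 to 47.0% for Atf3. That test therefore cannot show how well changes in the members would be found. The members, lists and tests were chosen with earlier results of these data known. The rule for named genes took the 10 members, Hif1a, the 3 genes of each list with the largest change for maternal diabetes in Hif1a+/-, and the genes most like the members. Nr4a2, Nr4a3, Tsc22d3 and Mt1 fell outside it. Gene symbols and gene positions came from GENCODE, and promoter windows from RefSeq. The precision is limited by 3 animals per group and, for Fos and Fosb, by few reads.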

Additional observations from a re-analysis of the deposited data

How the results depend on the processing

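No paired analysis was made. The groups share no replicate numbers and the labels do not give the litter, so whether animals of different groups were littermates is not known. Over 80 results for members and 1317 alternatives, 9 were called, all without a filter on low counts, and 65 changed sign, all on leaving out 1 sample. Of the 65, the values named here are those of results given in the text. With DESeq2, 4 genes were called for diabetes in Wt, 201 in Hif1a+/-, 1 for genotype in non-diabetic and 24 in diabetic pregnancies, 68 for Hif1a+/- diabetic against Wt non-diabetic, 203 for diabetes and 7 for genotype averaged. Without a filter, edgeR called 129, 592, 33, 220, 445, 593 and 77 genes in the same order and 78 for the interaction. Members among them numbered 1 (Atf3) for diabetes in Hif1a+/-, 1 (Nr4a1) for genotype in non-diabetic pregnancies, 3 (Fos, Atf3 and Nr4a1) in diabetic pregnancies, 2 (Atf3 and Nr4a1) for Hif1a+/- diabetic against Wt non-diabetic, 1 (Atf3) for diabetes averaged and 1 (Nr4a1) for genotype averaged. In that fit of 27093 genes the median degrees of freedom were 160.0 against 13.3, and the SE of Nr4a1 in diabetic pregnancies was 0.18 against 0.39. Fitting only the groups compared called 101 genes for diabetes in Hif1a+/-. Leaving out 1 sample gave 0 to 38 genes there, 0 to 2 for genotype in diabetic pregnancies, 0 to 1 for Hif1a+/- diabetic against Wt non-diabetic, 0 to 1 for the interaction, 0 to 21 for diabetes averaged and 0 to 2 for genotype averaged.

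The signs of 43 log2 fold changes were followed on leaving out 1 sample. Those that turned for diabetes in Wt were Fos (0.21 with all samples, -0.32 to 0.74), Fosb (-0.22 to 0.75) and Ier2 (-0.12 to 0.32). For diabetes in Hif1a+/- they were Nr4a1 (-0.4 with all samples, -0.68 to 0.06), Hspa1a (-2.6 to 0.63), Hspa1b (-2.63 to 0.24) and Ciart (-1.57 to 0.73). Correlations with Fos without the 2 farthest samples were 0.54 (Fosb), 0.69 (Jun), 0.46 (Nr4a1), 0.48 (Dusp1), 0.46 (Zfp36) and -0.18 (Ier2). As deviations from group means, Junb (0.67) and Egr1 (0.53) passed. Ier2 was at 0.53 with a pseudocount of 0.1 CPM and 0.52 with DESeq2 normalization. The causes were not tested.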
